A study of Mus musculus with 12 samples.

Results

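The cytosolic ribosomal protein genes encode the protein part of the ribosomes that translate nuclear messages, and their messenger RNAs were followed here in mouse liver. A probe set is a group of short probes that together give 1 signal for a transcript. Members were all probe sets whose platform annotation gives exactly 1 gene symbol of the form Rpl, Rps, Rplp or Rpsa, leaving out the ribosomal S6 kinase genes and pseudogenes, and every probe set of a gene was kept. They numbered 100 probe sets of 48 genes, out of 22626 probe sets tested and 12393 genes with a probe set of their own. Of the members, 50 probe sets belonged to 20 small subunit genes, 39 to 20 large subunit genes, 2 to the stalk genes Rplp0 and Rplp2, and 9 to 6 variant paralogs, close relatives of a standard ribosomal protein gene. A further 102 probe sets list a ribosomal protein gene together with other symbols, mostly its pseudogene copies, and 27 ribosomal protein genes are only found there. These are given as a group below and no gene is named from them.

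The study measured liver total RNA of male mice aged 6 weeks on 12 one-colour Affymetrix mouse arrays, 3 animals in each of 4 groups. All animals were transgenic, with human alpha1-antitrypsin that can be switched by doxycycline and is made in hepatocytes only. In M mice the human protein is the wild-type form, and in Z mice it is ATZ, a mutant that misfolds and is retained in the endoplasmic reticulum. In the groups called M off and Z off, doxycycline at 40 µg/mL was in the drinking water from conception until death and the transgene was not expressed. In M on and Z on no doxycycline was given and the transgene was expressed. The comparison of on with off therefore also compares animals without and with the drug, and the comparison of Z with M also compares 2 transgenic lines; in both cases the parts cannot be told apart. The animals are labelled as biological replicates, and the number of founder lines, the littermate relations and the driver of the transgene beyond its hepatocyte specificity are not given in the sources used here. The human transgene was not measured by name on these arrays.

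Each eukaryotic ribosome is built from a small subunit, which reads the messenger RNA, and a large subunit, which joins amino acids and carries the stalk that recruits translation factors. Most of the subunit proteins are needed in equal numbers. Their messages in mammals begin with a C followed by a run of pyrimidines, the 5′ terminal oligopyrimidine or TOP motif, through which growth signals acting by mTOR and LARP1 set how strongly they are translated. Because TOP control acts mainly on translation, message levels measured on arrays do not report it. In the liver, ribosomal protein messages are among the abundant transcripts, and the hepatocyte makes large amounts of secreted protein with them.

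The start regions of 6 members are shown because they belong to genes described below and hold a run of pyrimidines across the annotated start. Each is the 60 bases from 40 before to 20 after an annotated transcript start in RefSeq, build GRCm38.p6, written 5′ to 3′ on the gene's strand, with the unbroken run of C and T that holds the first transcribed base in capitals.
Rps9, chr7:3704001-3704060, plus strand: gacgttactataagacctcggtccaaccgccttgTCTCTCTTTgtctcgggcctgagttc
Rps6, chr4:86857348-86857407, minus strand: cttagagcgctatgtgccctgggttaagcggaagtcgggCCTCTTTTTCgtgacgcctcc
Rps10, chr17:27635225-27635284, minus strand: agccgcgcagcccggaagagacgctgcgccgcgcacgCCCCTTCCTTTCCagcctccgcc
Rps18, chr17:33955646-33955705, minus strand: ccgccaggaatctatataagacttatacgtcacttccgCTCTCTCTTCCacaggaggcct
Rpl7a, chr2:26910767-26910826, plus strand: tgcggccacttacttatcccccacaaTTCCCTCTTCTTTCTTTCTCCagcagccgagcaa
Rpl35, chr2:39005112-39005171, minus strand: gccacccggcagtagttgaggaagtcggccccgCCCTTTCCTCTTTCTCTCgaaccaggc
The run was 9 bases long in Rps9, 10 in Rps6, 13 in Rps10, 11 in Rps18, 21 in Rpl7a and 18 in Rpl35. Runs were counted on both sides of the annotated start, so part of each of these lies before the message. At the starts shown, the Rps9 and Rpl7a messages begin with T, not with the C of the TOP motif. Start regions were matched for 42 of the 48 member genes, with 50 annotated starts. A run of at least 5 bases held the first transcribed base at 13 of these 50 starts (26%), against 3330 of the 32851 starts in the whole table (10.1%). The letters CCGGAAG, searched on both strands over 300 bases from 250 before to 50 after the start, were present at 21 of the 50 member starts (42%) and at 8.86% of all starts. These are matches of letters in annotated windows, and they describe sequence, not binding or regulation.

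The arrays showed liver RNA, and signs of RNA quality and of other cell types differed between groups. Pairs of arrays correlated at 0.924 to 0.976 (Pearson's r of log2 signal over the 11313 brighter probe sets). Of 10 hepatocyte marker genes 9 were measured, among them Alb, Apoa1, Ttr and Cyp2e1, and all 9 lay above the median level on these arrays. The summed signal of 8 measured of 12 erythroid markers was 1466.5 to 1843.8 on the Z off arrays and 465.1 to 590.3 on all others. Alas2, the erythroid haem synthesis gene, made up most of it on the Z off arrays, with a mean of 1278 in Z off and 175 to 274 in the other groups, and no marker was at 0. The erythroid markers did not move together. In Z off minus M off 5 of the 8 were higher and 3 lower, and in Z on minus Z off 4 were higher and 4 lower. Klf1 and Slc4a1 had their lowest group mean in Z off. The 3′ probe set of 18S ribosomal RNA read 93.9 to 373 on the Z off arrays, 226.6 to 767.5 on M on, 568.2 to 709.8 on M off and 914.2 to 1491.7 on Z on. The ratio of 3′ to 5′ signal of beta-actin, a sign of RNA quality, was 2.18 to 2.53 on Z off and 2.44 to 5.16 elsewhere, and that of Gapdh was 1.09 to 1.92 over all arrays. The summed signal of 9 stellate cell markers was 1899.4 to 2157.7 on Z off, 1207 to 1505.8 on Z on, 2042.1 to 2219.8 on M off and 1330.7 to 1864.8 on M on. Bulk liver RNA cannot tell fewer cells of a type from less RNA per cell.

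Ribosomal protein messages in these livers differed little between groups in either line, and every call among them came from 1 probe set, of Rps9. With the fit used throughout (limma on log2 signal, 12 arrays, Benjamini-Hochberg adjustment over all probe sets, called at an adjusted p under 0.05), 0 of 100 members were called in Z on minus Z off, against 0.0133% of all probe sets, and 0 in M on minus M off, against 0%. An unadjusted p under 0.05 was reached by 1 of 100 members in Z on minus Z off, against 6.29% of all probe sets, and by 2 of 100 in M on minus M off, against 5.18%. No member was called in the difference between these differences either (0% of all probe sets), and 2 of 100 against 5.18% had an unadjusted p under 0.05. These calls are few on the whole array, so a count of 0 says little about members in particular.

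Direction and size were as follows when the mutant protein was switched on. In Z on minus Z off, 62 of 100 members had the higher value in Z on, with a median log2 difference of 0.06, against -0.03 over all probe sets. Among the 81 members that were not dim (dim means a mean log2 signal below 5.27, the median of all probe sets, which is a signal of 38.5), 58 were higher and the median was 0.10. The large subunit had 30 of 34 probe sets that were not dim higher and a median of 0.12; in the small subunit 24 of 38 were higher, with a median of 0.09. In M on minus M off 49 of 100 members were higher with a median of -0.00, against -0.01 over all probe sets. Of the members that were not dim 37 of 81 were higher, and of the large subunit ones among them 13 of 34. The Z on minus Z off median of 0.06 was 0.00 without the second Z off array, and it turned to -0.07 over the 30 members whose probe set name has no suffix letter, of which 16 were dim. Z off and Z on were also fully apart in the 18S signal, the erythroid marker sum and the stellate marker sum given above, and the part of these in the medians was not tested.

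**Figure D1:**
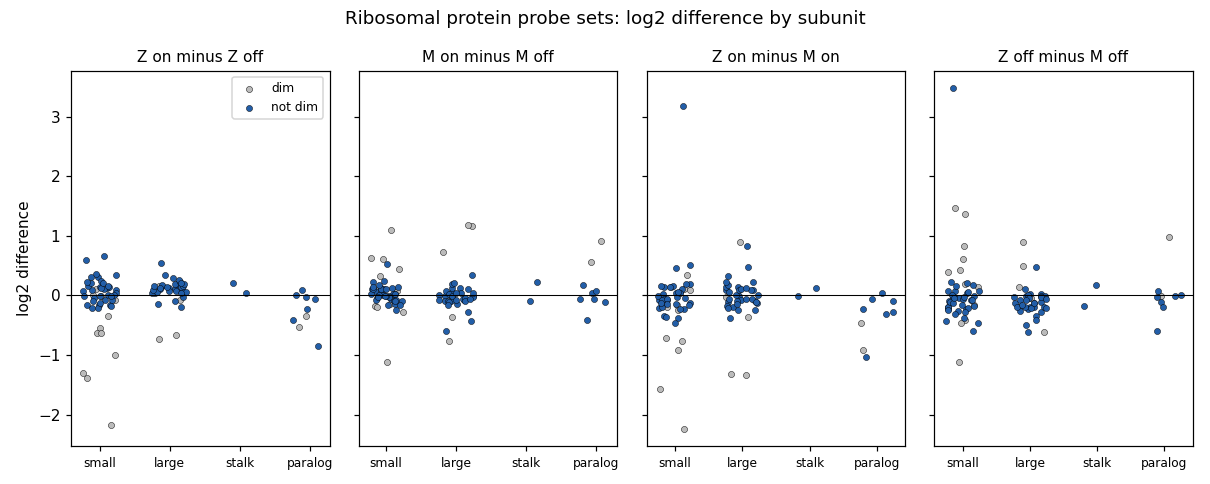
Log2 difference (vertical axis) of each of the 100 ribosomal protein probe sets, grouped by small subunit, large subunit, stalk and variant paralog (horizontal axis), in 4 comparisons; grey points are dim probe sets and blue points are not. Most blue points lie close to 0; the farthest is the Rps9 probe set 1434624_x_at, at 3.18 and 3.48 in the comparisons of Z with M, followed by Rps4l at -1.03 in Z on minus M on and -0.85 in Z on minus Z off, and Rpl41 1455578_x_at at 0.83 in Z on minus M on.

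Precision was higher for members than for the array as a whole, but members and other probe sets were not matched for signal level, and spread was wider at low signal. The residual SD within groups had a median of 0.18 log2 units over the 81 members that were not dim and of 0.28 over all probe sets that were not dim; over the 19 dim members it was 0.91. The 95% interval of the difference lay wholly within a 2-fold change (log2 of -1 to 1) for 73 of 81 members in Z on minus Z off (90.1%, against 73.7% of all probe sets that were not dim), and for 74 of 81 in M on minus M off (91.4% against 76.6%). Averaged over both lines, the interval of on minus off lay within that range for 78 of 81 (96.3% against 91.3%). Changes below 2-fold are not bounded as tightly: the median interval reached 0.42 log2 units to either side in a single line and 0.30 when averaged.

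Between lines, more of the members had lower than higher signals in the Z livers, by small amounts. In Z off minus M off 69 of 100 members were lower, with a median log2 difference of -0.07 against 0.03 over all probe sets; 62 of the 81 that were not dim were lower, with a median of -0.11, and in the large subunit 29 of 34. The value was -0.06 in Z on minus M on, with 39 of 100 higher, and -0.06 for Z minus M averaged over both states, with 36 of 100 higher. In the off state 13 members had all Z signals below all M signals and 4 had all above; over all probe sets 6.76% were below and 8.36% above. In the on state 12 were below and 7 above, against 6.02% and 6.07%. These are counts of probe sets, and a gene with several probe sets can be counted more than once. Among those below in the off state were Rpl35 1434231_x_at, 1436840_x_at, 1454856_x_at and 1455950_x_at, and probe sets of Rps9 described below. Leaving out the first M on array took the Z on minus M on median from -0.06 to -0.01. The erythroid marker sum, the 18S signal and the actin ratio given above also set Z off apart from M off, and their part in these medians was not tested.

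The members' level was also read array by array. The median deviation of all 100 members from their 12-array means was 0.03 ± 0.04 log2 units in M off, 0.04 ± 0.07 in M on, -0.05 ± 0.03 in Z off and 0.01 ± 0.05 in Z on (mean ± SD, n = 3 arrays), from -0.08 on the second Z off array to 0.12 on the first M on array. The 3 Z off arrays lay below 0, and each other group had values on both sides of 0. Z off did not overlap with M off, whose lowest array was at -0.01 against -0.02 for the highest Z off array. This narrow separation did not hold over the 81 members that were not dim. There the first M off array was at -0.04 and the third Z off array at -0.02.

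**Figure D2:**
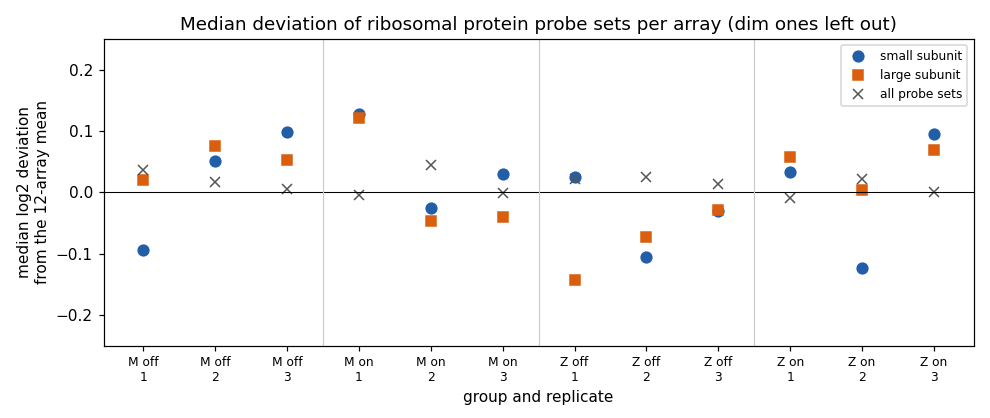
Median log2 deviation from the 12-array mean (vertical axis) on each array (horizontal axis, group and replicate), for small subunit probe sets, large subunit probe sets and all probe sets, leaving out dim ones. The ribosomal protein medians lie within about 0.15 of 0 on every array, with the first M on array highest.

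Among the small subunit proteins, Rps9, which sits beside the channel where messenger RNA enters the ribosome, gave the only calls. Its probe set 1434624_x_at read 54.8, 16.1 and 57.3 on the M off arrays, 56.4, 48.8 and 54.9 on M on, 483.3, 332.1 and 441.5 on Z off, and 520.5, 388.5 and 551.6 on Z on. All 6 Z arrays lay above all 6 M arrays, with a wide gap, and on and off overlapped within each line. The log2 difference of Z off minus M off was 3.48 (SE 0.43, 11.2-fold, limma adjusted p 0.035), that of Z on minus M on was 3.18 (SE 0.43, 9.04-fold, adjusted p 0.076, which missed the threshold), and that of Z minus M averaged over both states was 3.33 (SE 0.31, 10.1-fold, adjusted p 0.00508). Called members were thus 1 of 100 in Z off minus M off, against 0.0707% of all probe sets, 0 in Z on minus M on, against 0.00884%, and 1 in Z minus M averaged over both states, against 0.0884%. An unadjusted p under 0.05 was reached by 3 of 100 members in Z off minus M off (7.73% of all probe sets), by 6 in Z on minus M on (6.85%) and by 5 in Z minus M averaged over both states (9.09%). The averaged call held when any 1 of the 12 arrays was left out. The off-state call held in 1 of 6 such omissions, with adjusted p from 0.00813 to 0.122, and was lost without M off 1, M off 3, Z off 1, Z off 2 or Z off 3.

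The other Rps9 probe sets did not repeat this pattern. Probe set 1433689_s_at read 1660.7, 1859.5 and 1770 on M off, 1667.9, 1759.2 and 1553.6 on M on, 1292.5, 1410.5 and 1373.6 on Z off, and 1276.2, 1802.2 and 1505.6 on Z on; the Z off arrays lay below the M off arrays, while Z on and M on overlapped. Its Z minus M difference was -0.25 (SE 0.12, limma adjusted p 0.59). Probe set 1426958_at was dim and read 55.8, 64.2 and 51.1 on M off, 54.9, 83.8 and 48.7 on M on, 29.8, 25.9 and 23 on Z off, and 31.1, 37.2 and 7.4 on Z on. All of its Z values lay below all of its M values, opposite to 1434624_x_at, with a Z minus M difference of -1.35 (SE 0.37, limma adjusted p 0.31). In the platform's naming an x suffix marks a probe set in which some probes are identical or very similar to unrelated sequences, and an s suffix one whose probes are shared by several transcripts. The 12 protein-coding genes nearest to Rps9 in RefSeq's gene order, looked at after the Rps9 values were seen, included 7 measured ones with 8 probe sets, of which 0 were called; their Z minus M differences ran from -0.95 for Pirb, which was dim, to 0.49 for a Prpf31 probe set.

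**Figure D3:**
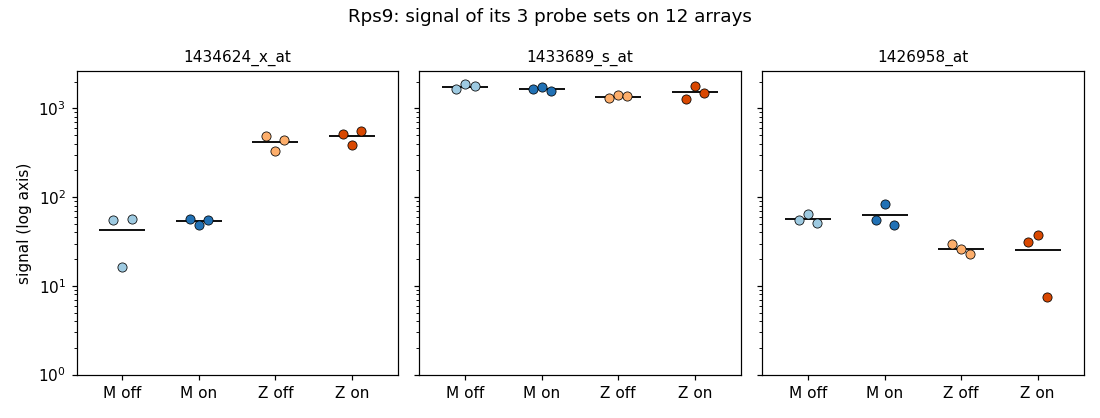
Signal (log axis) of the 3 Rps9 probe sets on the 12 arrays, 1 panel each; points are arrays, bars are group means and colours are the 4 groups. The left panel separates Z from M by about 10-fold, the middle panel shows near-equal levels, and the right panel has Z below M at low signal.

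Rps19, a small subunit protein whose mutation causes Diamond-Blackfan anaemia, had the smallest unadjusted p of any member for higher signal with the transgene on, averaged over both lines. It read 1290.2, 1565.2 and 1454.2 on M off and 1827.6, 1600.1 and 1651 on M on, and 1067.8, 1288.3 and 1260.8 on Z off and 1566.5, 1567.5 and 1421.3 on Z on. The on arrays lay above the off arrays within both lines. The difference was 0.34 in Z (SE 0.16, limma adjusted p 0.80), 0.24 in M (SE 0.16) and 0.29 averaged over both (SE 0.11, unadjusted p 0.030, adjusted p 0.81), so it did not pass the test. Over all members, 9 had groups apart in Z on against Z off and 6 in M on against M off, against 11.8% and 10.5% of all probe sets; averaged over both lines 0 members were called for on minus off, against 0.00884%, and 2 had an unadjusted p under 0.05, against 5.84%.

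Other small subunit genes with a fixed role of interest showed no call. Rps6, the protein phosphorylated by the S6 kinases downstream of mTOR, read 90.6 to 117.7 on M off, 108.4 to 117.3 on M on, 92.6 to 112.4 on Z off and 76.2 to 100.4 on Z on with probe set 1416142_at, a Z minus M difference of -0.21 (limma adjusted p 0.66). Its second probe set, 1453466_at, was dim. Rps3, which lines the messenger RNA entry site, differed by 0.18 between Z and M (adjusted p 0.73), with 1993.8 to 2878 on M arrays and 2363.7 to 2749.8 on Z arrays. Rpsa, also known as the laminin receptor precursor, read 2557 to 3398.5 on M and 2353 to 2791.2 on Z with its bright probe set 1448245_at, and these overlapped. Rps27, a zinc finger protein of the small subunit, differed by 0.33 (probe set 1460699_at, adjusted p 0.71), the M arrays reading 61 to 133.1 and the Z arrays 91.3 to 171.1.

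Several small subunit genes came forward by rank in single comparisons and are given as values. Rps14 (1436586_x_at) read 1917, 2451.3 and 2524.9 on Z off and 2932.4, 2824.6 and 3065.2 on Z on, which do not overlap, a difference of 0.37 (SE 0.19, limma adjusted p 0.82), against -0.00 in M. Rps15 (1416088_a_at) differed by 0.31 in Z and 0.11 in M and had an averaged on minus off difference of 0.21 (adjusted p 0.90). Rps18 (1455572_x_at), of the small subunit head, read 2319.2 to 3101.2 on M off, 2810.1 to 3401.6 on M on, 1627.1 to 2362.7 on Z off and 1945.5 to 2322.5 on Z on, a Z minus M difference of -0.45 (SE 0.15, adjusted p 0.38). The other 2 Rps18 probe sets that were not dim, 1435712_a_at and 1448739_x_at, were both at 0.05. Rps24 (1456628_x_at), another Diamond-Blackfan gene, read 479.6, 537.5 and 541 on Z off and 1031.1, 487.6 and 949.2 on Z on, where 2 of the 3 Z on arrays stood apart; the difference was 0.59 (adjusted p 0.80).

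In the large subunit, Rpl35, which sits at the exit of the nascent chain tunnel, came nearest to a line difference. Probe set 1436840_x_at read 1898.9, 2173 and 2186.2 on M off, 2405.9, 1689.1 and 2028.8 on M on, 1482.3, 1359.5 and 1622.2 on Z off, and 1503, 1418.8 and 1747 on Z on; the difference of Z minus M was -0.44 (SE 0.13, limma adjusted p 0.35). Probe set 1454856_x_at read 1702 to 2015.6 on all M arrays and 1267.9 to 1610.4 on all Z arrays, so that the lines did not overlap, with a difference of -0.33 (SE 0.11, adjusted p 0.43). The 3 further Rpl35 probe sets that were not dim were at -0.07 (1416243_a_at), -0.14 (1434231_x_at) and -0.20 (1455950_x_at), all with Z lower and none called. Over all members, 3 probe sets had all 6 Z arrays apart from all 6 M arrays, against 0.924% of all probe sets: the Rps9 probe sets 1434624_x_at and 1426958_at and Rpl35 1454856_x_at. For the 6 on against the 6 off arrays the number was 0, against 0.318%.

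Rpl8, a large subunit protein next to the peptidyl transferase centre, had on minus off values of opposite sign in the lines. It read 1765, 2019.2 and 2083.5 on M off and 1456, 1632.6 and 1742.1 on M on, and 1652.5, 2271.7 and 1418.6 on Z off and 2280.2, 2155.8 and 2241.3 on Z on. The M on arrays lay below the M off arrays, while the second Z off array fell among the Z on arrays. The difference was -0.28 in M and 0.35 in Z, and the interaction was 0.63 (SE 0.28, unadjusted p 0.049, limma adjusted p 0.93), which did not pass the test.

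**Figure D4:**
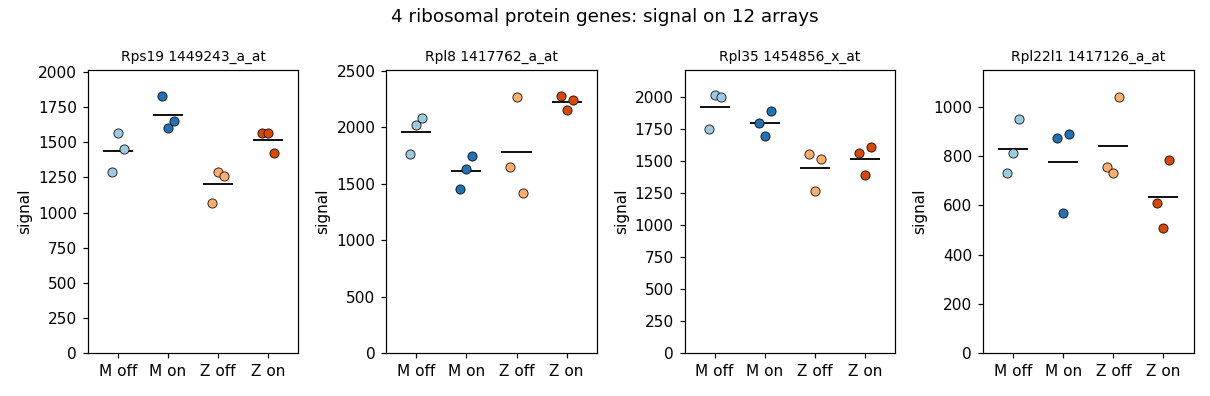
Signal on the 12 arrays (linear axis from 0) of Rps19, Rpl8, Rpl35 probe set 1454856_x_at and Rpl22l1; points are arrays and bars are group means. Rps19 is higher in the on groups of both lines, Rpl8 is lowest in M on and highest in Z on, Rpl35 is lower in Z than in M, and Rpl22l1 has its lowest mean in Z on; none of these passed the adjusted test.

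Large subunit genes chosen for their roles were not called either. Rpl11, which with Rpl5 and 5S ribosomal RNA binds Mdm2 when ribosome assembly is disturbed, read 2306.2 to 3640 on M arrays and 2614.9 to 3266.6 on Z arrays, with differences of 0.10 in Z on minus Z off and -0.00 in M on minus M off (limma adjusted p 0.96 and 1.00). Rpl13a, which also acts outside the ribosome in interferon-dependent silencing of messages, had 4 probe sets that were not dim, and their Z minus M differences ran from -0.19 to -0.02. Rpl22 read 499.2 to 730.7 on M and 548.7 to 736 on Z with probe set 1416603_at, a difference of 0.02. Rpl39, a small protein of the exit tunnel, read 71.6 to 164.9 on M and 115 to 162.3 on Z, with a Z off minus M off difference of 0.48 (limma adjusted p 0.73). Rpl7a, whose start region is shown above, read 4393.1 to 4992.6 on Z off and 3991.9 to 4407.7 on Z on. It read 4754.6 to 5421.9 on M off and 4332.2 to 4922.9 on M on. Its on minus off difference was -0.15 in Z and -0.15 in M. Rpl41 encodes a very short basic peptide, and its probe set 1455578_x_at read 1420.3, 4163.4 and 4686.3 within Z off alone. Its M on minus M off difference was -0.59 (SE 0.44, limma adjusted p 1.00). Rpl27a 1437729_at was at -0.43 in M on minus M off (limma adjusted p 1.00), with 430.6 on the first M off array and 162.4 to 253.3 on the other 2 M off arrays and the M on arrays together.

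The stalk proteins, which recruit the translation GTPases to the large subunit, gave overlapping values in most groups. Rplp0, the stalk base that is often used as a reference gene, read 3680.9, 3722.7 and 3223.2 on M off, 3074.1, 3713.6 and 3139.6 on M on, 2770.8, 3340.4 and 3291.6 on Z off, and 3520.9, 3045.6 and 4353.4 on Z on. All 4 groups overlapped. Its on minus off difference was 0.21 in Z and -0.10 in M (limma adjusted p 0.90 and 1.00), and its Z minus M difference was -0.03. Rplp2 read 2717 to 2897.2 on M off and 2802 to 3807.1 on M on, a difference of 0.22 in M on minus M off. It read 2976.2 to 3396 on Z off and 3150.1 to 3312.1 on Z on, a difference of 0.04 in Z on minus Z off. Its M off arrays lay below all Z arrays, with a Z off minus M off difference of 0.17 (limma adjusted p 0.85).

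Most variant paralog probe sets were lower in Z on than in Z off. Of their 9 probe sets, from 6 genes, 7 were lower in Z on, with a median of -0.22. Over all probe sets the median was -0.03. Of the 19 dim members, some of them paralogs, 15 were lower as well, with a median of -0.53. Subunit probe sets that were not dim were mostly higher instead, 24 of 38 in the small and 30 of 34 in the large subunit. Rpl22l1, the paralog of Rpl22 with which it competes in development, read 755, 732.8 and 1039.2 on Z off and 610.8, 508.2 and 786.2 on Z on, which overlap; the difference was -0.41 (SE 0.26, limma adjusted p 0.85), against -0.12 in M. Rps4l, a paralog of Rps4x, read 305.1, 342 and 174 on M off, 147, 214.3 and 245.8 on M on, 121.7, 191.7 and 225.4 on Z off, and 39, 205 and 113.3 on Z on, with a Z minus M difference of -0.81 (SE 0.39, adjusted p 0.59). The first Z on array, at 39, was the lowest of the 12. Rps27l, a p53 target, had 3 probe sets between -0.06 and 0.00 in Z on minus Z off. Rpl7l1 had 2 probe sets at 0.10 and -0.22 there. Rpl3l, known from striated muscle, and Rpl39l, known from testis, were dim, at 2.7 to 17.1 and 3 to 24.1 on all arrays.

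For genes with several probe sets, the probe sets mostly lay close together once dim ones were set aside. Of 23 genes with several probe sets, 19 had at least 2 that were not dim, and the median gap between the highest and the lowest log2 difference of such a gene was 0.17 for Z minus M. Rps9 was the only one of the 19 with a gap over 1, at 3.58 for Z minus M; the next was Rps18 at 0.50. In Z on minus Z off the widest such gap was 0.65 and in M on minus M off 0.81, both for Rpl41. Wider gaps appeared where a dim probe set entered: in Z on minus Z off, Rps24 1436500_at was at -2.17 (signals of 8.3 to 54.6 on Z off and 2.6 to 7.1 on Z on) while Rps24 1456628_x_at was at 0.59. In Z off minus M off Rps10 1436384_at was at 1.47 (4 to 12.4 on M off and 10.1 to 28 on Z off) while Rps10 1439374_x_at was at -0.46. Rps18 1421838_at was at -2.24 in Z on minus M on at signals of 0.8 to 8.8, and Rpsa 1416196_at read 0.7 to 6.2 on all arrays. The dim Rps20 probe set 1450417_a_at was at -0.63 in Z on minus Z off and -0.77 in Z on minus M on, while the bright 1456373_x_at of the same gene was at 0.25 in the first. Rpl35 1454833_at, dim as well, was at 1.19 in M on minus M off, with 6.5 on the third M off array and 27.6 to 44.1 on the other M arrays. The dim Rpl14 probe set 1422128_at read 36.1 to 44.1 on M off and 17.4 to 34.4 on Z off, a difference of -0.61 (limma adjusted p 0.66).

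Dimness followed the kind of probe set. Of the 30 members without a suffix letter 16 were dim (53.3%, against 54.5% of all such probe sets), while of the 28 with an a suffix, probes for alternative transcripts of 1 gene, 1 was dim (3.57% against 41.8%), and of the 40 with an x suffix 2 were dim (5% against 37.5%). Most of the bright signal of the members thus comes from probe sets with a or x suffixes, and the medians above rest on them.

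**Figure D5:**
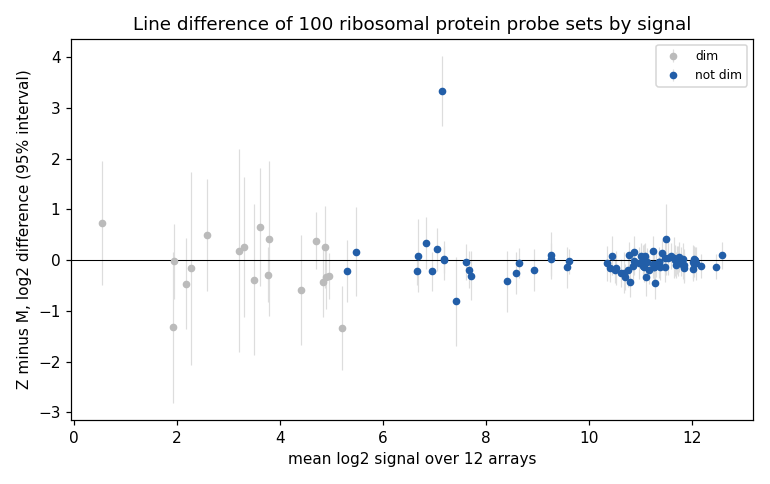
Z minus M log2 difference averaged over both states (vertical axis, with 95% interval) of the 100 members against mean log2 signal over 12 arrays (horizontal axis); grey points are dim. Most differences stay close to 0 and most intervals are short at high signal, and intervals widen among the 19 dim probe sets. Exceptions among those not dim are Rpl41 1455578_x_at at 0.41 (interval -0.29 to 1.11) and Rps4l at -0.81. Rps9 1434624_x_at stands alone at 3.33.

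The 102 probe sets that list a ribosomal protein gene among several symbols were read as a group. Of these, 0 were called in any of the 7 comparisons. In Z on minus Z off 57 of 102 were higher, with a median of 0.01, and in M on minus M off 57 of 102 were higher as well, also with a median of 0.01, so the values of the 100 members in Z were not repeated here. In Z off minus M off the median was -0.07 and 64 of 102 were lower. Unadjusted p values under 0.05 numbered 2, 3 and 7 in these comparisons, against 6.29%, 5.18% and 7.73% of all probe sets. Rpl3, Rpl5 and Rplp1 are measured only by such probe sets, and Rps27a has no member probe set, so none of these has a value here. Fau, whose product carries the small subunit protein Rps30, had group means of 3051 in M off, 3213 in M on, 2683 in Z off and 3001 in Z on, a Z minus M difference of -0.14 (limma adjusted p 0.82).

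Genes that act with the ribosome were read from fixed lists with the brightest probe set of each gene, and 0 genes of these lists were called in any comparison. The other messages known to carry a TOP motif, translation factors in the main, were measured for 19 of 20 genes; 12 were higher and 7 lower in Z on minus Z off, with a median of 0.07 beside 0.11 for the 48 ribosomal protein genes and -0.03 for all genes on the same scale. Npm1, the nucleolar chaperone nucleophosmin, was at 0.41 there (limma adjusted p 0.85), with group means of 628 in Z on and 469 in Z off. Hnrnpa1, a splicing regulator, was at 0.37 in Z minus M (adjusted p 0.38). Of 31 translation factor genes 25 were measured, 9 higher and 16 lower in Z on minus Z off; Eif1a, a start site selection factor, was at -0.45 for on minus off averaged over both lines (adjusted p 0.64) and Eef2k, the kinase that slows elongation, at 0.46 (adjusted p 0.71).

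Ribosome assembly and ribosomal RNA synthesis genes were measured for 56 of 60, and 22 were higher and 34 lower in Z on minus Z off, with a median of -0.07. Ncl, the nucleolar protein nucleolin, had group means of 689 in M off, 676 in M on, 403 in Z off and 479 in Z on, a Z minus M difference of -0.65 (SE 0.16, limma adjusted p 0.26). Gnl3, the nucleolar GTPase nucleostemin, was at 0.46 for on minus off averaged over both lines (SE 0.13, adjusted p 0.59) and at -0.44 in Z minus M (adjusted p 0.34). Nop58 was at -1.08 in Z on minus Z off (SE 0.47, adjusted p 0.79), with means of 80.8 in Z off and 35.7 in Z on. Of 35 genes in growth control of ribosome making 29 were measured; in Z on minus Z off 1 of the 29 had an unadjusted p under 0.05 upward and 3 downward (13.8%), against 339 upward and 449 downward of all 12393 genes (6.36%). They were Mxd1 (dim) upward, and Rps6kb2 (-0.84), Cdkn1a (dim, -1.36) and Mdm2 (-0.60) downward, all with limma adjusted p of 0.616 or more. Rps6kb2 encodes an S6 kinase, Cdkn1a the cell cycle inhibitor p21 and Mdm2 the p53 ligase that Rpl11 binds. For Cdkn1a the means were 29.7 in M off, 23 in M on, 89.2 in Z off and 37.8 in Z on.

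The mitochondrial ribosomal proteins, which build the separate ribosome of the mitochondrion, served for comparison. All 73 genes measured had a probe set above the median level, and in Z on minus Z off 35 were higher and 38 lower, with a median of -0.03. In Z minus M their median was 0.01, against -0.07 for the cytosolic genes on the same scale, and 38 were higher and 35 lower. Mrps18a had the smallest p, at 0.52 in Z minus M (SE 0.12, limma adjusted p 0.24), with means of 224 and 214 in M off and M on and of 281 and 350 in Z off and Z on.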

How the data were processed

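Liver RNA purified with TRIZOL and a spin column was labelled with biotin and hybridised to one-colour arrays (per the labels' protocols). Deposited were linear intensity signals, 1 per probe set and array, to 1 decimal. RMA is named in the submitters' processing notes, but these linear intensities share a mean trimmed by 2% at each end of 150.1 on every array and are not quantile-equal, so the authors' scaling stays unknown here. Signals were taken to log2 (1 value of 0 was set to 0.1) without further scaling. The 64 control probe sets of 22690 were left out. One mean per group was fitted to 12 arrays with limma 3.58.1 in R 4.3.3, with 7 contrasts, and p-values were adjusted by Benjamini-Hochberg over 22626 probe sets; adjusted p under 0.05 was called. Fold values are 2 to the power of the log2 difference. The labels give 3 biological replicates per group, and the number of arrays limits the precision.

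Gene symbols came from the platform annotation: 20380 probe sets had 1 symbol, 691 several and 1555 none. Members and lists were chosen with earlier results of these data known. Named genes were every called member, the 3 genes with the smallest p in each direction of each comparison, up to 8 genes with disagreeing probe sets, a fixed set with known roles, and up to 4 genes per pathway list. Checked on simulated data for Z minus M averaged over both states, with 22626 probe sets, the fit recovered 15 of 20 changed members at a log2 change of 1 and 19 of 20 at 2. The simulation also changed 80 other probe sets at each size, and 11 unchanged ones were called. The real data gave only 20 calls in this comparison, which makes the adjustment stricter, so recovery there can be lower. Alternatives covered scaling, filters, probe set choice, the variance model, array weights, a replicate block and each array left out.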

Additional observations from a re-analysis of the deposited data

Results flagged for a closer look

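The dim Rpl12 probe set 1435655_at, for a protein at the base of the stalk, had on minus off values of opposite sign in the 2 lines. It read 26.1, 41.6 and 10.2 on M off, 44.8, 47.4 and 58.1 on M on, 36.2, 35.4 and 23.8 on Z off, and 23.1, 20.5 and 16.1 on Z on, so that all M on arrays lay above M off and all Z on arrays below Z off. The interaction was -1.83 (SE 0.62, unadjusted p 0.016, limma adjusted p 0.93), and this difference between the lines did not pass the adjusted test. Its mean log2 signal of 4.85 was below the dim limit of 5.27.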

How the results depend on the processing

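The Rps9 1434624_x_at difference of Z minus M averaged over both states kept its call in all 12 omissions of 1 array and in all 9 other settings that hold that probe set. In Z on minus M on, 1 member was called instead of 0, again this probe set, after quantile normalization (limma adjusted p 0.048), with a trended and robust variance (0.00103), with probe sets above the median only (0.00962) and with 16 added to every signal (0.00478). In Z off minus M off the count was 0 instead of 1 with 1 probe set per gene, with the mean of a gene's probe sets, with probe sets without a suffix letter, which all leave out or merge this probe set, and when only the 2 groups compared were fitted (adjusted p 0.30); leaving out single arrays gave 0 to 1. For Z minus M averaged over both states the first 3 of these settings gave 0 as well. The median over members moved in Z off minus M off to -0.13 with arrays centred on the median and to -0.018 without suffix letters, in the interaction to 0.10 with 1 probe set per gene and to -0.23 without suffix letters, and in Z on minus Z off to -0.071 without suffix letters, where the sign turned and 30 probe sets remain; over single omissions it ran from 0.0036 to 0.073 in Z on minus Z off, and from -0.083 to -0.0061 in Z on minus M on, the value nearest 0 being without the first M on array. The cause of these shifts was not tested. For single probe sets, 775 recomputed values kept direction and side of the threshold, and the 4 that gained and 6 that lost a call are the Rps9 values above. Same-numbered arrays of different groups did not deviate together (r -0.08 to 0.16, 3 of 18 pairs over 0.1; 6 of 12 arrays correlated best with their own number), and with the replicate number as a block the counts of called members stayed at 1 in Z off minus M off and in Z minus M and at 0 in the others. Dim probe sets, 19 of the 100, are limited by their low signal.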
